A study of Caenorhabditis elegans with 72 samples.

Results

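Heterochronic genes set the order and the timing of cell fates as *C. elegans* passes through its larval stages, and 9 of them were examined here as markers of developmental stage: *lin-14*, *lin-28*, *hbl-1*, *lin-46*, *lin-41*, *lin-29*, *mab-10*, *lin-42* and *blmp-1*. They were chosen by name, with earlier results of these data known, and all are reported whatever their values. All 9 were found among the 46624 genes of the deposited table. Whole animals of 4 genotypes were frozen at late L4, the last larval stage, and their RNA was sequenced to ask what loss of IL-17 signaling does to gene expression. The genotypes were the double mutants *malt-1; npr-1* (the paracaspase MALT-1 is mutated), *ilc-17.1; npr-1* (the IL-17 ligand) and *nfki-1; npr-1* (an IκB-like protein), and *npr-1* single mutants as their control. All 4 are therefore mutant in *npr-1*, a neuropeptide receptor gene, and each double mutant is named below by its first gene. The labels give AX204 as the strain background throughout without naming alleles. Progeny of 10 gravid adults per plate, laid within 2 h, were grown on *E. coli* OP50, with 8 to 10 plates pooled per replicate. The labels list 18 samples of each genotype, and the methods give 6 biological replicates of *malt-1*, *nfki-1* and *npr-1* and 5 of *ilc-17.1*. Replicate labels run in sequence in the other genotypes, whereas the last *ilc-17.1* samples repeat earlier replicate numbers with a suffix. What that suffix stands for is not stated.

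The table gives, for each gene, 1 FPKM value (fragments counted relative to transcript length and to the size of the library, so that genes can be compared in level) per genotype in each of 7 comparisons of a pair of genotypes. These cover 6 different pairs, since *ilc-17.1* and *malt-1* are listed in both orders, with the same values for the members. Means of *malt-1* and *ilc-17.1* include both listings. The table holds no value per sample. No SD can therefore be computed, no difference below was tested, and "higher" or "lower" describes the authors' pooled values only. Values were scaled within each comparison, so the same genotype differed slightly from one comparison to another, by a median factor of 0.980 to 1.01 over all genes with at least 1 FPKM in *npr-1*. That spread shows the scaling and not the variation between animals. Sequencing depth is unknown. The targeted genes, checked first, had 3.99 FPKM of *malt-1* in *malt-1* mutants against 6.49 FPKM in *npr-1*, 0.157 FPKM of *ilc-17.1* in *ilc-17.1* mutants against 0.315 FPKM in *npr-1*, and 8.94 FPKM of *nfki-1* in *nfki-1* mutants against 24.1 FPKM in *npr-1*. Transcripts of *npr-1* itself were listed at 0.563 to 0.674 FPKM on average in the 4 genotypes. Markers of body wall muscle, neurons, intestine and germline were present in all genotypes. Of the 3 hypodermis markers, by contrast, *dpy-7* was listed at 0 and *rol-6* and *elt-3* did not exceed 1.14 FPKM on average.

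In the textbook pathway, each member acts at its own point in larval life. LIN-14, a nuclear protein, specifies fates of the first larval stage and is repressed by the microRNA *lin-4*. The RNA-binding protein LIN-28 and the zinc finger factor HBL-1 hold animals in second-stage fates until *lin-4* and the *let-7* family of microRNAs lower them, and LIN-46, a protein related to gephyrin, opposes HBL-1. The RNA-binding protein LIN-41 in turn keeps down LIN-29, the zinc finger factor that switches the epidermis to its adult program, and MAB-10, a cofactor of LIN-29. LIN-42, the worm relative of Period, and the zinc finger factor BLMP-1 vary with each larval molting cycle.

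The members formed 3 sets by level. *lin-28*, *lin-14* and *hbl-1* were present at more than 1 FPKM in every genotype. *lin-46*, *lin-41*, *lin-29* and *mab-10* were listed at exactly 0 in every genotype and comparison, and *lin-42* and *blmp-1* were below 0.05 FPKM throughout. Thus 4 of the 9 members were listed at 0, beside 16.6% of the 19701 protein-coding genes, and 6 of 9 stayed under 0.05 FPKM on average in every genotype, beside 21.5% of protein-coding genes. All 9 are annotated as protein-coding.

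**Figure D1:**
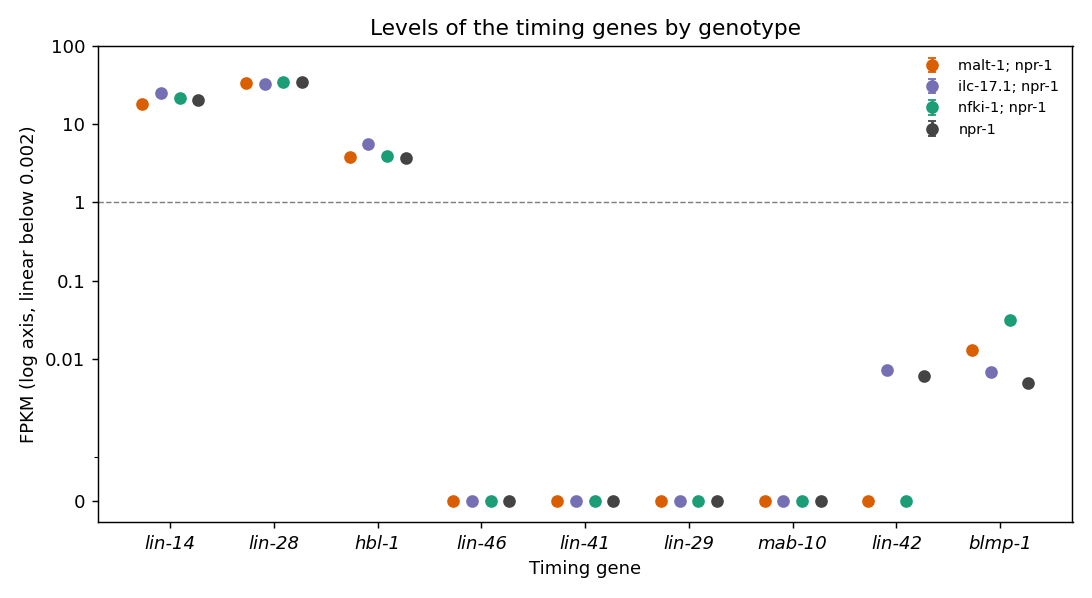
Mean FPKM of each of the 9 timing genes over the comparisons that hold a genotype, on an axis that is logarithmic above 0.002 and linear below; vertical bars, mostly hidden by the points, run from the lowest to the highest value of a genotype over its comparisons and show scaling only. *lin-14*, *lin-28* and *hbl-1* lie above the dashed line at 1 FPKM in all 4 genotypes, and 4 genes lie at 0.

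*lin-28* (WBGene00003014, chromosome I, from 8407802 to 8410804) had the highest level of the 9 in every genotype. It was listed at 33.2 FPKM in *malt-1* against 33.8 in *npr-1*, at 32.5 FPKM in *ilc-17.1* against 34.3 in *npr-1*, and at 34.4 FPKM in *nfki-1* against 34.1 in *npr-1*. The 4 genotypes thus had nearly the same level, which in *npr-1* placed *lin-28* at rank 3872 of the 15734 protein-coding genes listed above 0. The log2 ratios of *lin-28* over *npr-1* were -0.03 in *malt-1*, -0.08 in *ilc-17.1* and 0.01 in *nfki-1*.

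*lin-14* (WBGene00003003, chromosome X, from 11465557 to 11484368, shared by 4 genes in the table) came next, at rank 5703 in *npr-1*. The other 3 genes of that locus are annotated as noncoding RNAs, the highest of them with 0.408 FPKM in *npr-1*. *lin-14* was listed at 18.2 FPKM in *malt-1* against 20.2 in *npr-1*, a log2 ratio of -0.15. In *ilc-17.1* it was listed at 24.7 FPKM against 20.5 in *npr-1*, which is 1.21-fold higher and a log2 ratio of 0.27. In *nfki-1* it was listed at 21.4 FPKM against 20.3 in *npr-1*, a log2 ratio of 0.07. The order of the genotypes was therefore *ilc-17.1*, *nfki-1*, *npr-1* and *malt-1* from high to low, with neighbors in that order closer together than can be judged without values per sample.

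*hbl-1* (WBGene00001824, chromosome X, from 5822277 to 5827755) was the lowest of the 3, at rank 9950 in *npr-1*, and differed most between genotypes. It was listed at 5.63 FPKM in *ilc-17.1* against 3.75 in *npr-1*, which is 1.5-fold higher and a log2 ratio of 0.58. The other mutants lay near the control: *hbl-1* was listed at 3.82 FPKM in *malt-1* against 3.70 in *npr-1*, a log2 ratio of 0.05. In *nfki-1* it was listed at 3.89 FPKM against 3.72 in *npr-1*, a log2 ratio of 0.06. Over all comparisons that hold a genotype, *hbl-1* ranged from 5.628 to 5.651 FPKM in *ilc-17.1*, and from 3.700 to 3.957 FPKM across *malt-1*, *nfki-1* and *npr-1* together. The *ilc-17.1* values thus lay apart from the rest in each listing, although these listings reuse the same animals and are not replicates.

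Within each genotype the order of levels was the same: *lin-28*, then *lin-14*, then *hbl-1*. The distances differed. *lin-28* was at 1.83 times the level of *lin-14* in *malt-1*, 1.32 times in *ilc-17.1* and 1.61 times in *nfki-1*, against 1.68 times in *npr-1*. *lin-28* was at 8.70 times the level of *hbl-1* in *malt-1*, 5.79 times in *ilc-17.1* and 8.84 times in *nfki-1*, against 9.15 times in *npr-1*. All 3 are early genes of the pathway, and in *ilc-17.1* the less abundant pair stood closer to *lin-28*.

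*lin-46* (WBGene00003031, chromosome V, from 12968855 to 12970730), which acts against *hbl-1*, was listed at 0 throughout. So was *lin-41* (WBGene00003026, chromosome I, from 9334812 to 9342496), the direct brake on the adult switch. *lin-29* (WBGene00003015, chromosome II, from 11916513 to 11935343, shared by 5 genes) and *mab-10* (WBGene00003107, chromosome II, from 10528084 to 10533880, shared by 3 genes), which carry out that switch, were also listed at 0 in all 4 genotypes. The protein-coding gene *hmg-12*, annotated on the opposite strand of the *lin-29* locus, averaged 189.0 FPKM in *npr-1*, a value that does not measure *lin-29*. No ratio can be formed for these 4 members, and whether they were silent, unread or removed in processing was not tested.

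The members tied to the molting rhythm were listed just above 0. *lin-42* (WBGene00018572, chromosome II, from 1233236 to 1252359, shared by 5 genes) was at 0 in *malt-1* and in *nfki-1*, at 0.00719 FPKM on average in *ilc-17.1* and at 0.00609 FPKM in *npr-1*. *blmp-1* (WBGene00003847, chromosome I, from 10409302 to 10414707) averaged 0.0128 FPKM in *malt-1*, 0.00688 in *ilc-17.1* and 0.0313 in *nfki-1*, against 0.00496 in *npr-1*. Both stood at the bottom of the list in *npr-1*, at ranks 15705 and 15719 of 15734, and no fold is given for either.

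Genes that mark the stage by other means were read beside them. Of 11 genes of the molt, when the cuticle is shed and remade, 10 were listed at 0 in every genotype, among them *noah-1* and *noah-2*, which encode proteins of the apical matrix, and *mlt-10*. The exception was *nekl-3*, a kinase needed for molting, at 27.03 FPKM in *malt-1*, 23.8 in *ilc-17.1* and 22.6 in *nfki-1*, against 25.4 in *npr-1*. Of the other timing genes below, *nhr-23* and *nhr-25*, nuclear receptors of the molting cycle, and *myrf-1* were also at 0. Genes of the late larval and adult cuticle were abundant instead: 9 of 10 exceeded 1 FPKM in *npr-1*, and the highest were the collagens *col-38*, with 3213 FPKM in *malt-1*, 2579 in *ilc-17.1* and 2979 in *nfki-1*, against 2352 in *npr-1*, and *col-63*, with 1656 FPKM in *malt-1*, 1291 in *ilc-17.1* and 1651 in *nfki-1*, against 1145 in *npr-1*. *col-19*, a textbook target of LIN-29 in adults, averaged 248.1 FPKM in *malt-1*, 293.8 in *ilc-17.1* and 406.5 in *nfki-1*, against 358.3 in *npr-1* (*col-19*, and the molting and timing genes named here as listed at 0, were chosen after their values were seen). How this level of *col-19* relates to the listing of *lin-29* at 0 was not tested. The study's methods exclude genes that oscillate in development, without saying at which step, and whether the zeros come from that step was not tested.

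**Figure D2:**
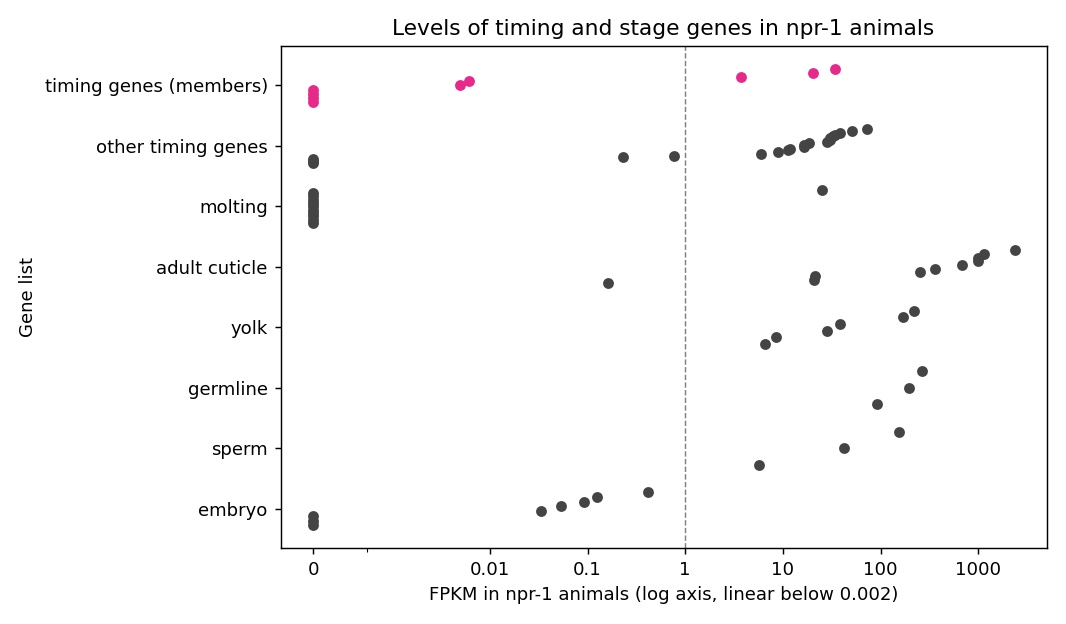
Mean FPKM in *npr-1* animals of each gene in 8 lists, 1 point per gene, on an axis that is logarithmic above 0.002 and linear below, with a dashed line at 1 FPKM. The 9 timing genes spread from 0 to 34.1 FPKM, 10 of 11 molting genes lie at 0, and the adult cuticle, yolk, germline and sperm genes lie mostly above 1.

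Each mutant was then compared with *npr-1* against the background of all genes. A gene was counted when its FPKM in *npr-1* averaged at least 1 and its log2 ratio was at least 0.25 in either direction, the limits of the study's methods without a test. Of the 9 members, 3 passed the limit on level. In *malt-1* mutants 0 of the 3 were past the fold in either direction, beside 19.6% of all genes higher and 13.5% lower. In *ilc-17.1* mutants *hbl-1* and *lin-14* were higher and none was lower, beside 25% of all genes higher and 21.3% lower. In *nfki-1* mutants 0 of the 3 were past the fold, beside 26.6% higher and 19.2% lower. With 3 genes these counts do not set the members apart from the background. The median log2 ratio of the 3 was -0.03 in *malt-1*, 0.27 in *ilc-17.1* and 0.06 in *nfki-1*, while that of all genes was within 0.02 of 0 in each comparison. Among all genes compared, *hbl-1* in *ilc-17.1* stood at percentile 92.3 and *lin-14* at percentile 76.9, so that many genes had larger ratios. *lin-14* was also only just past the limit.

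**Figure D3:**
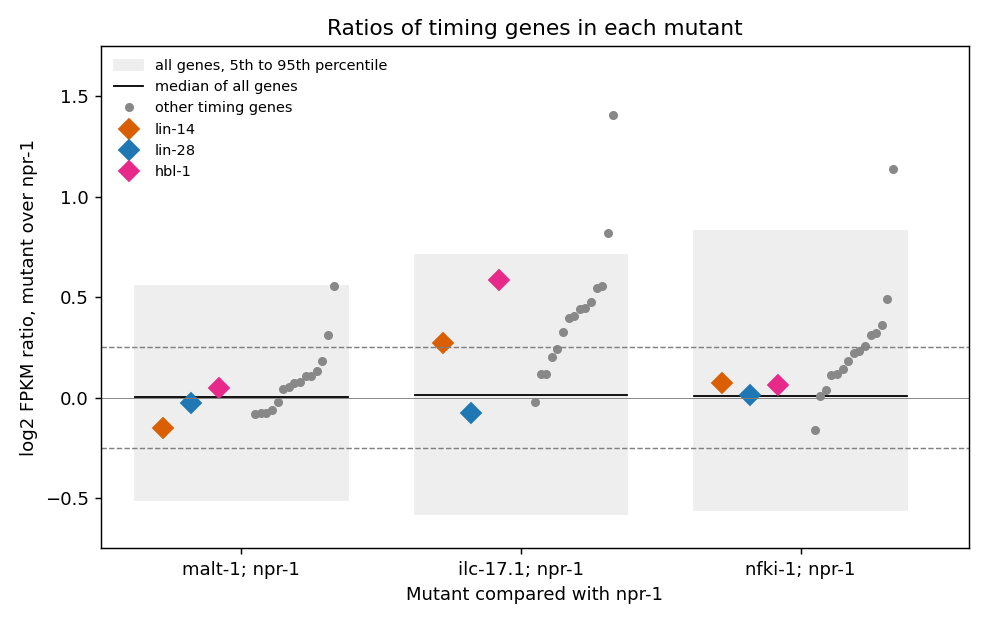
Log2 ratio of FPKM in each mutant over *npr-1* for *lin-14*, *lin-28* and *hbl-1* (diamonds) and for the 15 other timing genes with at least 1 FPKM in *npr-1* (grey points), beside the range from percentile 5 to percentile 95 of all genes (grey boxes) and their median (black lines); dashed lines mark 0.25 in either direction. In *ilc-17.1* mutants *hbl-1* at 0.58 and *lin-14* at 0.27 lie above the dashed line and *lin-28* at -0.08 lies near 0.

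The table also compares the mutants with each other, in the same animals. *hbl-1* was listed at 5.64 FPKM in *ilc-17.1* against 3.88 in *malt-1*, a log2 ratio of 0.54, and at 3.96 FPKM in *nfki-1* against 5.65 in *ilc-17.1*, a log2 ratio of -0.51. Between *nfki-1*, at 3.89 FPKM, and *malt-1*, at 3.86 FPKM, its log2 ratio was 0.01. *hbl-1* was thus higher in *ilc-17.1* than in each of the other genotypes. *lin-14* was listed at 24.8 FPKM in *ilc-17.1* against 18.4 in *malt-1*, a log2 ratio of 0.43, and at 21.4 FPKM in *nfki-1* against 18.4 in *malt-1*, a log2 ratio of 0.22. *nfki-1* mutants had 21.8 FPKM of *lin-14* against 24.9 in *ilc-17.1*, a log2 ratio of -0.19. *lin-28* stayed within 0.10 of 0 on the log2 scale in all 3 pairs. Of the 3 members, 2 were higher and 0 lower in *ilc-17.1* than in *malt-1*, beside 20.6% of all genes higher and 18.8% lower. None was past the fold between *nfki-1* and *malt-1*, beside 18% higher and 11.3% lower. Between *nfki-1* and *ilc-17.1*, 0 were higher and 1, *hbl-1*, was lower, beside 19.3% higher and 13.9% lower.

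**Figure D4:**
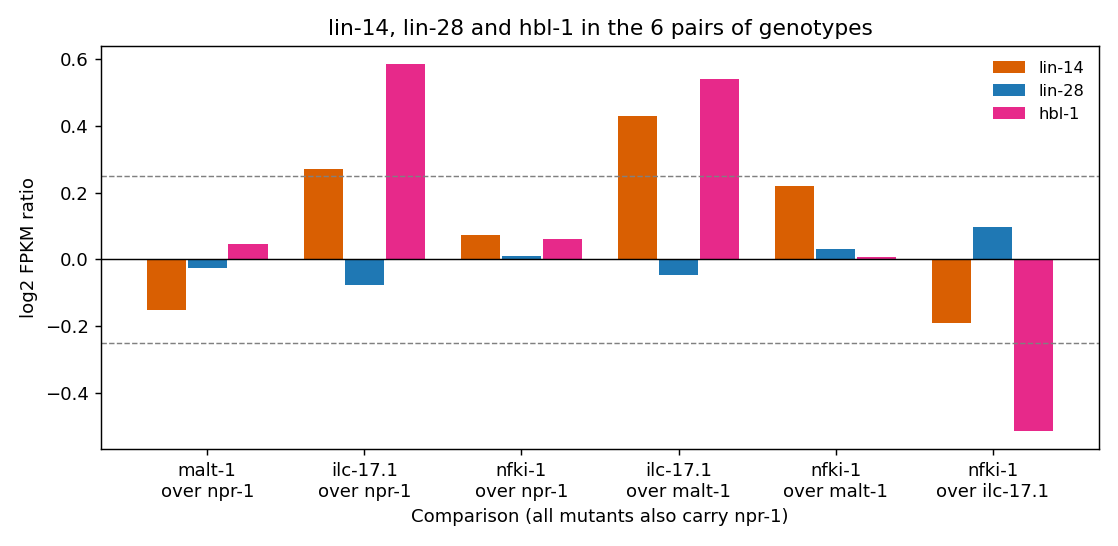
Log2 ratio of FPKM of *lin-14*, *lin-28* and *hbl-1* in the 6 pairs of genotypes, each from the comparison of that pair, with dashed lines at 0.25 in either direction. *hbl-1* is past the dashed lines in the 3 pairs that hold *ilc-17.1*, at 0.58, 0.54 and -0.51, and *lin-28* in none.

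The wider timing pathway was read from a list of 26 genes, of which 20 were matched to the table by name and 15 had at least 1 FPKM in *npr-1*. The microRNA genes *lin-4*, *let-7*, *mir-48*, *mir-84* and *mir-241*, and *lep-2*, were not matched by name and are not analysed here. Of the 15, 2 were higher and 0 lower in *malt-1*, beside 19.6% of all genes higher and 13.5% lower. In *ilc-17.1*, 10 were higher and 0 lower, beside 25% and 21.3% of all genes. In *nfki-1*, 6 were higher and 0 lower, beside 26.6% and 19.2% of all genes. The list was chosen with earlier results of these data known, and it was not tested against all genes. Their median log2 ratio was 0.07 in *malt-1*, 0.41 in *ilc-17.1* and 0.22 in *nfki-1*. The 3 comparisons share the *npr-1* animals, so that these counts are not independent of each other.

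The genes with the largest mean ratio in that list were *sea-2* and *lin-66*. *sea-2*, which encodes a zinc finger RNA-binding protein of the timing pathway, was listed at 12.9 FPKM in *malt-1* against 8.76 in *npr-1*. In *ilc-17.1* it had 23.5 FPKM against 8.89 in *npr-1*, and in *nfki-1* 19.4 FPKM against 8.82 in *npr-1*, so that its log2 ratio was 0.56 in *malt-1*, 1.40 in *ilc-17.1* and 1.14 in *nfki-1*. *lin-66*, which keeps *lin-28* low in the textbook pathway, had log2 ratios of 0.31 in *malt-1*, 0.82 in *ilc-17.1* and 0.49 in *nfki-1*, with 33.3 FPKM in *ilc-17.1* against 18.9 in *npr-1*. Both genes were past the fold in all 3 mutants, with the highest level in *ilc-17.1*, whereas *hbl-1* was past it in *ilc-17.1* and in neither other mutant. That trait was not particular to *hbl-1*: in the same list *daf-12*, *alg-1*, *dcr-1* and *myrf-2* had it as well. *myrf-2*, chosen after its values were seen, had log2 ratios of -0.02 in *malt-1*, 0.47 in *ilc-17.1* and 0.11 in *nfki-1*. The share of all genes with that trait was not computed.

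Of all genes compared, the pattern over the 3 mutants nearest to that of *hbl-1*, the member with the largest mean absolute ratio, belonged to the unnamed pseudogene WBGene00007677, then to *daf-12* and T09A5.14, at Euclidean distances of 0.0454, 0.0481 and 0.0605 over the 3 log2 ratios, among 12853 genes. WBGene00007677 and T09A5.14 had only 1.33 and 1.09 FPKM in *npr-1*. *daf-12* encodes the steroid receptor that links hormone signals to larval timing. It was listed at 11.6 FPKM in *malt-1* against 11.2 in *npr-1*, at 16.6 FPKM in *ilc-17.1* against 11.4 in *npr-1*, and at 11.6 FPKM in *nfki-1* against 11.3 in *npr-1*. Its log2 ratios were 0.04 in *malt-1*, 0.54 in *ilc-17.1* and 0.04 in *nfki-1*. Since *daf-12* was picked for ratios near those of *hbl-1*, its being past the fold in *ilc-17.1* alone follows from that choice. Likeness over 3 values that share a control is a weak measure. *din-1*, a partner of DAF-12, had a log2 ratio of 0.13 in *malt-1*, 0.55 in *ilc-17.1* and 0.26 in *nfki-1*. It and the genes of the next paragraph were chosen after their values were seen.

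The machinery that makes and uses microRNAs acts upstream of *lin-14*, *lin-28* and *hbl-1*. *alg-1* and *alg-2* encode its Argonaute proteins. *alg-1* was listed at 41.6 FPKM in *ilc-17.1* against 30.7 in *npr-1*, a log2 ratio of 0.44, and *alg-2* at 16.3 FPKM in *ilc-17.1* against 11.96 in *npr-1*, a log2 ratio of 0.45. The log2 ratio of *alg-1* was 0.10 in *malt-1* and 0.14 in *nfki-1*, and that of *alg-2* was 0.11 in *malt-1* and 0.36 in *nfki-1*, so that *alg-2* was past the fold in *nfki-1* as well. The processing enzyme *dcr-1* (Dicer) had a log2 ratio of 0.08 in *malt-1*, 0.41 in *ilc-17.1* and 0.22 in *nfki-1*. *drsh-1* (Drosha) had -0.08 in *malt-1*, 0.40 in *ilc-17.1* and 0.31 in *nfki-1*, and was thus past the fold in the *ilc-17.1* and *nfki-1* mutants. Its partner *pash-1* was within the limit in each mutant, at -0.06 in *malt-1*, 0.12 in *ilc-17.1* and 0.23 in *nfki-1*. The cofactors *ain-1*, *ain-2* and *nhl-2*, and *xrn-2*, an exonuclease that degrades released microRNAs, were also within the limit in all 3 mutants, the highest ratio among them being that of *ain-1* in *ilc-17.1*, at 0.24.

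Other stage and tissue markers differed in the same comparisons, in which 19.6% of all genes were higher and 13.5% lower in *malt-1*, 25% and 21.3% in *ilc-17.1*, and 26.6% and 19.2% in *nfki-1*. Vitellogenin genes, which load yolk in adults, had summed levels of 695.6 FPKM in *malt-1*, 1523 in *ilc-17.1* and 1479 in *nfki-1*, against 468.6 in *npr-1*, and all 6 were higher in each mutant. Their top pair was *vit-6*, with 347.9 FPKM in *malt-1*, 680.4 in *ilc-17.1* and 720.5 in *nfki-1*, against 218.9 in *npr-1*, and *vit-2*, with 205.1 FPKM in *malt-1*, 473.4 in *ilc-17.1* and 485.1 in *nfki-1*, against 167.8 in *npr-1*. The 3 germline markers *pgl-1*, *glh-1* and *him-3* were lower in each mutant, with summed levels of 441.7 FPKM in *malt-1*, 338.6 in *ilc-17.1* and 412.2 in *nfki-1*, against 550.8 in *npr-1*. Of the muscle markers, *myo-3* was past the fold in all 3 mutants and *unc-54* in *ilc-17.1*, with summed levels of 764.5 FPKM in *malt-1*, 1057 in *ilc-17.1* and 862.4 in *nfki-1*, against 723.4 in *npr-1*. Of 3 neuronal markers, 0 were lower in *malt-1*, 2 in *ilc-17.1* and 2 in *nfki-1*, with summed levels of 268.8 FPKM in *malt-1*, 251.4 in *ilc-17.1* and 235.9 in *nfki-1*, against 267.7 in *npr-1*. The 3 intestinal markers stayed within the limit in every mutant. Of the 3 sperm markers, 1 was higher in *malt-1*, 1 lower in *ilc-17.1* and 2 higher in *nfki-1*. Of the 9 adult cuticle genes compared, 4 were higher and 4 lower in *malt-1*, 1 was higher and 4 lower in *ilc-17.1*, and 4 were higher and 0 lower in *nfki-1*. Lists as short as those of germline, sperm, muscle, neurons and cuticle are not set apart from all genes by such counts. No list, that of yolk included, was tested against all genes. The 8 embryo markers, which would show adults holding eggs, summed to 0.616 FPKM in *malt-1*, 0.458 in *ilc-17.1* and 0.657 in *nfki-1*, against 0.723 in *npr-1*, and none reached 0.5 FPKM on average in any genotype. The germline sum was below that of *npr-1* in all 3 mutants and lowest in *ilc-17.1*. The muscle sum was highest in *ilc-17.1*, and the yolk sums of *ilc-17.1* and *nfki-1* were close. The log2 ratio of *hbl-1* was 0.05 in *malt-1*, 0.58 in *ilc-17.1* and 0.06 in *nfki-1*. The part of these markers in the *hbl-1* and *lin-14* values was not tested, and in whole animals fewer cells of a type and less RNA per cell cannot be told apart.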

How the data were processed

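RNA from whole animals was made into stranded polyA libraries, and the authors trimmed reads with Trim Galore 0.4.3, aligned them with TopHat2 2.1.0 and quantified them with Cufflinks 2.2.1 and Cuffdiff, per the submitters' processing notes. The genome build is not given in the sources used here. The deposited table gives FPKM, estimated once for every genotype within a comparison. The table's fold changes, test statistics, p-values and q-values are the authors' own comparisons and were not used; it has 0 columns of values per sample, so that the linear model planned for such values could not be fitted and the design is described without tests. Positive values as small as 1e-06 FPKM and below occur (178 of them), so values are model estimates from which depth cannot be read.

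Log2 ratios were computed without a pseudocount from the pair of values of 1 comparison (Python 3.11.15, pandas 2.3.3). A genotype's mean is over its comparisons. Of the 13250 genes with a mean of at least 1 FPKM in *npr-1*, those listed at 0 in either genotype of a comparison were left out of it, leaving 13010 for *malt-1*, 13005 for *ilc-17.1* and 12996 for *nfki-1*. WormBase identifiers were named from a table of gene names (43276 of 46624), gene types came from the WBcel235 annotation, and coordinates are those of the deposited table with starts 1-based. Counting was tested on simulated ratios. The members and lists were chosen with earlier results of these data known. The rule for named genes took all members, the targeted genes, the 2 other timing genes with the largest mean ratio, the 2 most abundant genes of each stage list and the 3 genes nearest to the member with the largest ratio; others are marked as chosen after their values were seen.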

Additional observations from a re-analysis of the deposited data

How the results depend on the processing

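No paired analysis was possible because the table holds no values per sample, and for the same reason no replicate could be left out. Of 102 alternative values, 91 stayed within 0.1 on the log2 scale, or for counts and shares within 1.5 times, and 11 moved, none with a change of direction. Direction was judged only for log2 ratios of at least 0.25 in either direction. Adding the same amount to both FPKM values cannot change it. With 1 added to both FPKM values, the log2 ratio of *hbl-1* in *ilc-17.1* was 0.48. With a minimum log2 ratio of 0.5, 1 member, *hbl-1*, was higher in *ilc-17.1*, and the shares of all genes higher and lower were 6.54% and 5.61% in *malt-1*, 10.3% and 7.10% in *ilc-17.1*, and 15.1% and 6.29% in *nfki-1*. With at least 5 FPKM in *npr-1*, 1 member, *lin-14*, was higher in *ilc-17.1*, since *hbl-1* is below that level. The shares of all genes were then 20.7% higher and 21.5% lower in *ilc-17.1*. With no filter on level, 1 member was higher in *malt-1*, 3 in *ilc-17.1* and 1 in *nfki-1*, the added one in each being *blmp-1* at its near-zero level. The share of all genes was not computed without a filter, so these counts have no background. Centring on the median of all genes, 0.1 added to both values, means over all comparisons and, for pairs of mutants, the difference of the ratios over *npr-1* or the reversed listing moved no member by 0.1 or more. Depth being unknown, no interval limits any of these values.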

Other observations

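Zeros of the kind listed for *lin-41*, *lin-29*, *mab-10* and *lin-46* were counted in gene families picked by name prefix after the values were seen. Because of that choice, the contrast between these families is no test. Of all protein-coding genes, 16.6% were listed at 0. Of protein-coding genes named *grd* or *wrt*, relatives of Hedgehog, 12 of 16 and 7 of 10 were listed at 0 in all comparisons. The same held for 15 of 24 *ptr* genes (patched-related), 23 of 37 *nas* genes (astacin proteases), 14 of 25 *dpy* genes, 6 of 8 *mlt* genes and 79 of 156 *col* genes. None of 31 *rps* genes, 25 *eif* genes, 8 *cct* genes or 13 *rpn* genes was at 0. Of 47 *rpl* genes 1 was, *rpl-37*, which encodes a ribosomal protein. The source of these zeros was not tested, and a level of 0 is not read here as absence of a transcript.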
